A study of Mus musculus with 2 samples.

Results

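Platelet granule genes are described here across the cell types of the fetal liver. The group holds 9 genes of 27998 in the count tables: Pf4, Ppbp, Vwf, Thbs1, Clu, Sparc, Treml1, Mmrn1 and Serpine2. They were chosen by symbol, as genes whose products platelets store in their alpha-granules or carry on the granule membrane. The rule uses no level, but the choice was made with earlier results of these data known. The cells came from the liver of 1 wild-type C57BL/6 mouse embryo at stage E12.5, counted in days of embryonic life, and no allele was altered and no agent given. Cells freed of debris, dead cells and doublets by cell sorting were processed as 2 technical replicate libraries by droplet-based single-cell RNA sequencing, which counts RNA molecules by unique molecular identifiers (UMIs). The deposited table gives each kept cell 1 of 9 cell types: megakaryocytes (Mk), monocytes and Kupffer cells (Mo/KC), endothelial cells (EC), hematopoietic stem and progenitor cells (HSPC, spelled HPSC in the table), granulocytes (G), hepatoblasts (Hepa), erythroid-committed progenitors (Ery), erythroblasts (Eryb) and primitive erythroblasts (EryP). All were drawn from the same liver, so the libraries repeat the measurement and not the animal.

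Megakaryocytes are the large cells that shed platelets, and they fill platelets in advance with proteins that are released at a wound. Alpha-granules are the most abundant platelet granules. Their cargo is partly made by the megakaryocyte and partly taken up from plasma, so that RNA marks only the first kind. The cargo includes chemokines, adhesive and matrix proteins, chaperones and protease inhibitors. Several of these proteins are also made by endothelial cells, macrophages or fibroblast-like cells, and the levels in Mo/KC and EC are therefore given beside those in Mk.

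Pf4 and Ppbp, the chemokine genes of the group, lie side by side. In the GENCODE annotation of GRCm38, the build of the count tables, Pf4 spans positions 90772435 to 90773383 of chromosome 5 on the plus strand and Ppbp positions 90768518 to 90770063 on the same strand, with 2371 bases and 0 protein-coding genes between them. The other members are spread over chromosomes 1 (Serpine2), 2 (Thbs1), 6 (Vwf and Mmrn1), 11 (Sparc), 14 (Clu) and 17 (Treml1). The RefSeq promoter table for GRCm38.p6 holds 6 of the 9 members and lacks Vwf, Thbs1 and Clu. The 250 bases before the RefSeq start are printed for Pf4, Ppbp and Treml1, which were highest in Mk by the widest margins, and for Sparc, which was highest in EC. They are chr5:90772185-90772434, chr5:90768268-90768517 and chr17:48359666-48359915, all on the plus strand, and chr11:55420081-55420330 on the minus strand. Capitals mark GGAAG on either strand, the core of sites for ETS factors; GATAA on either strand, the core of sites for GATA factors, was searched as well and was in none of these 4.
Pf4: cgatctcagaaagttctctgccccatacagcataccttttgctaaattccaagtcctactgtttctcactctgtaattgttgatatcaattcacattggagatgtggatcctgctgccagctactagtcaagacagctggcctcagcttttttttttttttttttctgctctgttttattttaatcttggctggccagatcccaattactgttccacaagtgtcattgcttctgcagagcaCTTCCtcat
Ppbp: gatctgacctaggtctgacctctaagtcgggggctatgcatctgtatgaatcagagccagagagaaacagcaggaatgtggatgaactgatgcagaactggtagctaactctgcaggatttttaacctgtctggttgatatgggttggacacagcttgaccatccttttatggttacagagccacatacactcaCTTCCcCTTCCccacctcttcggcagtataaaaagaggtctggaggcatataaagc
Treml1: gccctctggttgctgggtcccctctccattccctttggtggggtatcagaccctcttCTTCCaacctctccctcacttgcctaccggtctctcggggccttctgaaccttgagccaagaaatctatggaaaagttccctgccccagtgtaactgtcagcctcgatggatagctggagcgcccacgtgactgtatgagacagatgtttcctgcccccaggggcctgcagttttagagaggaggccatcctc
Sparc: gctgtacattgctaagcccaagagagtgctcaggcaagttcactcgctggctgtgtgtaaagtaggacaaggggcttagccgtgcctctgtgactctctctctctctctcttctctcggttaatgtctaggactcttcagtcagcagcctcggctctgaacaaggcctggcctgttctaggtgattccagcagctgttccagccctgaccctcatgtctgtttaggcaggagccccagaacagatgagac

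Pf4 held 1 match to GGAAG, with its first base 9 bases before the start, and Ppbp held 2, at 56 and 50 bases before it. Treml1 held 1, at 193 bases, and Sparc none. Of the members not printed, Mmrn1 held 1 GATAA and 1 GGAAG and Serpine2 held 2 GGAAG. No match overlapped another. Among 32851 promoter windows of this length, 64.1% held GGAAG and 22.6% held GATAA, so the matches are common letters and a description only.

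The kept cells of library 1 numbered 5480, with 51969226 UMIs, and those of library 2 numbered 5057, with 62738015 UMIs. The shallowest kept cell had 504 UMIs in library 1 and 4387 in library 2, so cells with few UMIs were kept in library 1 alone. The libraries shared 31 cell barcodes. Each cell type was checked against its own marker list: in Mk all 10 genes for platelet receptors and cytoskeleton were detected and highest in Mk in both libraries, and in EC all 11 endothelial markers were. In Mo/KC 10 and 9 of 10 macrophage markers and 7 of 8 monocyte markers were detected, and 9 and 8 of the former and 5 of the latter were highest there. All 10 markers of G and all 8 of Hepa were highest in their types. The label was less clear for HSPC, where all 6 markers were detected but 4 were highest in HSPC, and least clear for Ery, where all 6 were detected but 0 in library 1 and 3 in library 2 were highest in Ery.

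Some cells named Mk held almost no receptor RNA. Of the 135 Mk cells, 20 of 79 in library 1 and 11 of 56 in library 2 had under 2 UMIs of the receptor and cytoskeleton list, which includes Itga2b, Itgb3, Gp9, Gp1ba, Gp1bb, Gp5, Gp6, Clec1b and Tubb1. They had a median of 1125 UMIs in library 1 and 8225 UMIs in library 2. A single shallow cell can have few receptor UMIs by depth alone. Summed over these cells, the list held 1 UMI in each library, or 10.4 CPM [0.264 to 58.2] and 7.30 CPM [0.185 to 40.7]. In the other Mk cells with under 1% of UMIs from the list it was at 2734 and 2960 CPM. The cells were picked by this count, so a low sum was partly set by the choice, and the part of depth was not tested. A list of stellate and mesothelial genes, which mark supporting cells of the liver, was at 1462 CPM in those of library 1 and 1818 CPM in those of library 2, and its UMIs lay in 11 of the 20 and 8 of the 11 cells. The rest were not assigned to any type. Levels in Mk include these cells unless stated. Their effect is given for Sparc, for Pf4 and for the number of members highest in Mk. These cells were grouped in this way after the data had been seen.

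Levels are given as UMIs per 1000000 UMIs (CPM) of all cells of a type, with the exact Poisson 95% interval in brackets where it matters. UMIs are not scaled for gene length, so values are compared between cells and not between genes. Intervals cover counting error only. The cell types came from clusters of the same UMIs, and the study gives Pf4 as the marker of Mk, so levels by cell type are a description without a test. In bulk sums of this kind, fewer positive cells and less RNA per cell cannot be told apart, so shares of cells are given as well. Free RNA, which leaks from broken cells into every droplet, was measured in 401631 and 386008 barcodes with 1 to 50 UMIs. It held much granule RNA: Pf4 reached 228 CPM [208 to 250] there in library 1, and 186 CPM [167 to 206] was its level in library 2. Ppbp reached 71.9 and 23.5 CPM. The 7 other members were between 1.53 and 16.7 CPM. From Hbb-bs, a globin gene that non-erythroid cells should not make, free RNA could be at most 5.06% to 14.6% of the UMIs of the non-erythroid types.

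**Figure D1:**
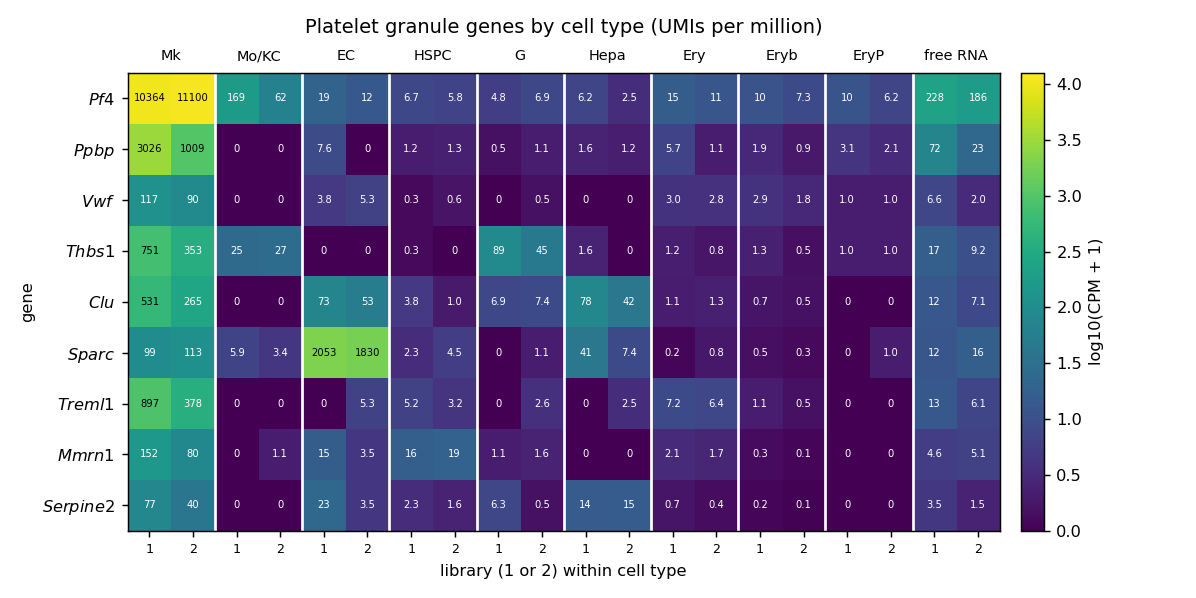
Level of each of the 9 genes (rows) in each cell type and in free RNA, library 1 and library 2 side by side, printed as CPM and coloured by log10(CPM + 1). The Mk columns are the brightest for every gene but Sparc, which reached 2053 and 1830 CPM in EC.

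The platelet chemokine genes were far higher in Mk than in any other type. Pf4 encodes platelet factor 4, a chemokine that binds heparin and related sugars. It reached 10364 CPM in Mk of library 1 and 11100 CPM in library 2. The next type was Mo/KC, with 169 and 62.1 CPM, which made Mk 61.2-fold [50.9 to 74.2] and 179-fold [137 to 237] higher. In the other 7 types Pf4 lay between 2.47 and 19.1 CPM. In EC, HSPC, G and Hepa this was not above what free RNA could give, and the erythroid types could not be tested in this way. A Pf4 UMI was seen in 53 of 79 Mk cells (67.1%, Clopper-Pearson 95% interval 55.6 to 77.3) and in 42 of 56 (75.0%, 61.6 to 85.6). With each cell thinned to 3600 UMIs, the shares were 73.4% of the 46 cells of library 1 deep enough and 67.8% of the 56 of library 2. These values include the Mk cells with under 2 receptor UMIs. Among the other Mk cells, only 8 of 59 and 3 of 45 had no Pf4 UMI. Over both libraries, Pf4 stood at 10782.5 CPM in all Mk cells and at 12398 CPM without those with under 2 receptor UMIs. In G, with median depths of 10550 and 14769 UMIs, 5.73% and 9.23% of cells had a Pf4 UMI before thinning. They held 9 and 13 Pf4 UMIs, where free RNA allowed up to 38.1 and 40.0.

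Ppbp encodes pro-platelet basic protein, the precursor of several platelet chemokine peptides. Its level in Mk was 3026 CPM in library 1 and 1009 CPM in library 2, so the libraries differed 3.0-fold [2.79 to 3.23], whereas Pf4 differed 0.934-fold. No other type exceeded 7.63 CPM. A Ppbp UMI was found in 29 of 79 and 19 of 56 Mk cells, and 2 cells in each library held 50% of all its Mk UMIs. Without the single cell richest in Ppbp, the Mk levels were 1891 and 616 CPM. Pf4 was spread a little more widely, with 4 cells in library 1 and 6 in library 2 holding 50% of its UMIs.

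Vwf and Thbs1 encode adhesive proteins. Vwf encodes von Willebrand factor, the multimer that tethers platelets to a damaged vessel and that endothelial cells also store. It stood at 117 CPM [94.0 to 144] and 89.7 CPM [72.3 to 110] in Mk. EC came next with 3.82 and 5.29 CPM, which were 1 and 3 UMIs. Ery followed with 58 and 51 Vwf UMIs and Eryb with 71 and 65, over many more cells. The place of EC before these types thus rests on few UMIs. Thbs1 encodes thrombospondin 1, a matrix protein that binds platelets and activates latent TGF-beta. Mk held 751 and 353 CPM of it, and G came next with 89.3 and 44.8 CPM. Mk was thus 8.40-fold [7.07 to 10.0] and 7.87-fold [6.20 to 10.1] above G.

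Mmrn1 encodes multimerin 1, a large protein that carries coagulation factor V in the granule. It reached 152 CPM [126 to 182] and 79.9 CPM [63.4 to 99.3] in Mk. HSPC followed with 16.2 and 18.6 CPM, a ratio of 9.36 in library 1 and 4.30 in library 2. Treml1 encodes a receptor of the alpha-granule membrane that reaches the platelet surface on activation. It stood at 897 and 378 CPM in Mk and at 7.24 and 6.39 CPM in Ery, the next type.

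Clu and Serpine2 had other sources close behind Mk. Clu encodes clusterin, a secreted chaperone. It stood at 531 and 265 CPM in Mk, at 78.1 and 42.0 CPM in Hepa and at 72.5 and 52.9 CPM in EC. The margin over the next type was 6.80-fold [5.06 to 9.32] in library 1 and 5.01-fold [3.43 to 7.57] in library 2. Serpine2 encodes protease nexin 1, an inhibitor of thrombin. Its level was 76.6 and 40.4 CPM in Mk, 22.9 and 3.53 CPM in EC and 14.1 and 14.8 CPM in Hepa, so the margin was 3.35-fold [1.45 to 9.49] and 2.73-fold [1.41 to 5.70].

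Sparc, which encodes a collagen-binding matrix protein, was the exception. It was highest in EC, at 2053 CPM [1883 to 2234] and 1830 CPM [1720 to 1945], and was seen in 20 of 20 and 26 of 26 EC cells. Mk came second with 98.7 and 113 CPM, and EC was 20.8-fold [16.3 to 26.8] and 16.1-fold [13.3 to 19.7] above it. Most of this Mk level came from cells with few receptor UMIs. The Mk cells with under 2 receptor UMIs held 65 of 76 Sparc UMIs in library 1 and 91 of 115 in library 2. In the Mk cells with at least 2 receptor UMIs, Sparc stood at 16.3 CPM [8.14 to 29.2] and 27.4 CPM [17.5 to 40.7], and 2 of 59 and 8 of 45 cells had a Sparc UMI. These levels rest on few cells: 1 cell held 10 of the 11 UMIs in library 1, and 2 cells held 9 and 8 of the 24 in library 2. Over the whole Mk cluster, 23 cells had at least 2 UMIs of the stellate and mesothelial list, and they held 91.6% of its Sparc.

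By a fixed rule, at least 5-fold above every other type in each library, 6 of the 9 members were highest in Mk: Pf4, Ppbp, Vwf, Thbs1, Clu and Treml1. Of the 9382 genes that reached 10 CPM in a cell type of each library, as all 9 members did, 77 met this rule (0.821%). Mmrn1 missed it in library 2, Serpine2 in both libraries and Sparc because of EC. Clu met it narrowly, at 5.01-fold in library 2. The 6 calls were unchanged without the Mk cells with under 2 receptor UMIs. Those cells held few UMIs of the 6 genes, so leaving them out could only raise the Mk levels and could lose no call.

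The libraries differed in the levels of most members in Mk. Thbs1, Clu, Treml1, Mmrn1 and Serpine2 were 1.90 to 2.38 times higher in library 1, with intervals that left out 1. Vwf was 1.30 times higher [0.962 to 1.76] and Sparc 0.870 times as high [0.643 to 1.17]. These libraries came from 1 liver, and 35 of the 79 Mk cells of library 1 had fewer UMIs than the shallowest cell of library 2. Mk cells with at least 1% receptor UMIs numbered 28 and 4. In those with under 1% and at least 2 receptor UMIs, Treml1 stood at 363 and 357 CPM and Thbs1 at 336 and 341 CPM. Clu stood there at 198 and 256 CPM, Mmrn1 at 111 and 89.7 CPM and Serpine2 at 69.2 and 28.3 CPM. The part of this mix of cells in the library differences was not tested. When cells of library 1 below 4387 UMIs were left out, a choice made after the data had been seen, the same 6 members met the rule.

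Mo/KC held 2 of the members, Pf4 and Thbs1. A member was called found where the lower 95% bound of its UMIs exceeded what free RNA could give in each library. Pf4 had 115 UMIs in library 1, where free RNA allowed up to 9.06, and 55 in library 2, where it allowed up to 16.6. Thbs1 had 17 and 24 UMIs, where free RNA allowed up to 0.849 and 1.17. The other 7 were not found: Ppbp, Vwf, Clu, Treml1 and Serpine2 were at 0 UMIs in both libraries, which allows up to 4.42 CPM in library 1 and 3.39 CPM in library 2. Sparc had 4 and 3 UMIs and Mmrn1 0 and 1. Over all genes 68.9% met this rule in Mo/KC, so that 2 of 9 lies below the background.

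Pf4 lay in the Mo/KC cells that carried macrophage markers, and Thbs1 in those that carried monocyte markers. Splitting Mo/KC by which of the marker lists had more UMIs gave 23 and 15 macrophage-marker cells and 33 and 43 monocyte-marker cells. The macrophage-marker cells held 112 of the 115 Pf4 UMIs in library 1 and 46 of 55 in library 2. That was 617 CPM [508 to 742] and 298 CPM [218 to 398], against 6.03 and 12.3 CPM in the monocyte-marker cells, a ratio of 102 [34.1 to 503] and 24.2 [11.7 to 56.3]. For Thbs1 the order was opposite. All 17 and all 24 UMIs lay in monocyte-marker cells, at 34.2 and 32.8 CPM, and the macrophage-marker cells had 0, which allows up to 16.5 and 19.4 CPM. Both genes were detected together in 1 cell of library 1 and 2 of library 2, each with 1 Pf4 UMI. Only 4 cells of library 1 and 0 of library 2 had marker counts close to even. The macrophage-marker cells were the shallower ones, with a median of 5299 and 7851 UMIs against 13878 and 16803.

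**Figure D2:**
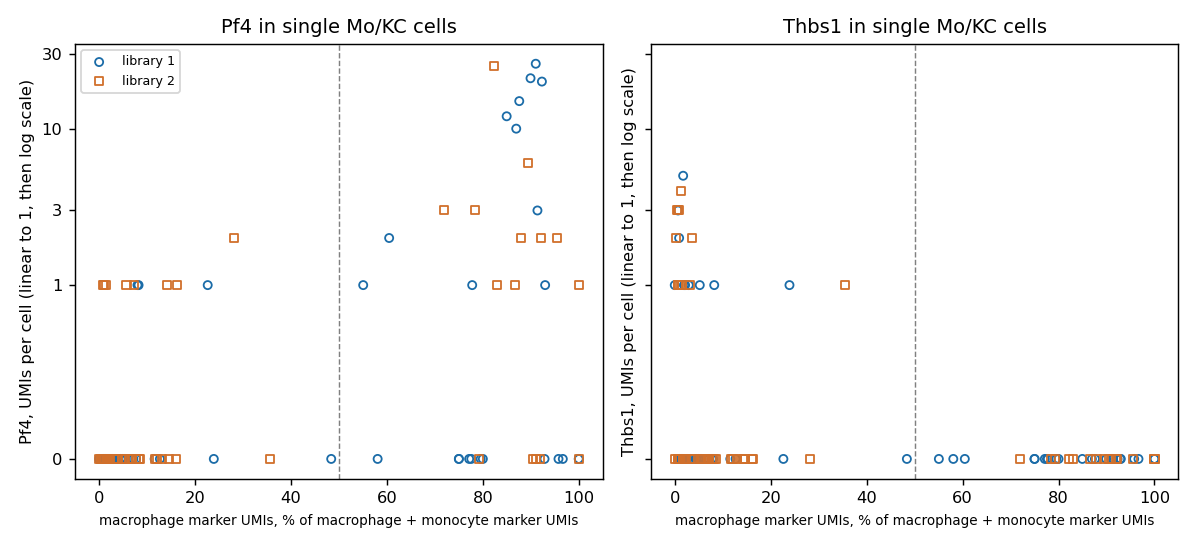
UMIs of Pf4 (left) and Thbs1 (right) in each of the 114 Mo/KC cells, against the percentage of macrophage markers among the macrophage and monocyte marker UMIs of the cell; the UMI axis is linear up to 1 and logarithmic above, circles are library 1 and squares library 2. Every cell with over 2 Pf4 UMIs lies right of the dashed line at 50%, and all Thbs1 lies left of it.

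Pf4 in Mo/KC came without Ppbp and Treml1. In Mk of library 1, 29.2 Ppbp UMIs went with every 100 of Pf4, and at that ratio the 115 Pf4 UMIs of Mo/KC would have gone with 33.6 Ppbp UMIs. The count was 0, with an upper bound of 3.69. The Mk ratio rests on few cells, as 2 cells held 50% of the Mk Ppbp in library 1. Many Mk cells also had Pf4 without Ppbp: 23 in each library, among those with at least 2 receptor UMIs. Treml1 would have had 9.96 UMIs and Itga2b, the gene of a platelet integrin chain, 11.7, and both were at 0. Gp9 had 3 UMIs against 14.0, Gp1bb 1 against 11.8 and Gp5 1 against 7.22. In library 2 the Mk ratio gave 5.0 Ppbp UMIs, and the count was again 0. Treml1 was at 0 there too, but the Mk ratio gave only 1.87, within the upper bound of 3.69. The receptor genes gave another picture there. Itga2b had 3 UMIs against 2.78 at the Mk ratio, Gp9 3 against 2.99 and Gp1bb 4 against 3.91, but Gp5 had 0 against 1.56. These counts lay in few cells: all 3 Gp9 and all 4 Gp1bb UMIs were in 1 cell of 24766 UMIs. That cell held 3 of the 55 Pf4 UMIs and 14 receptor UMIs. The cells with the most Pf4 had 26, 21 and 20 UMIs in library 1, with 0, 1 and 0 receptor UMIs, and 25, 6 and 3 in library 2, with 2 receptor UMIs each, where that cell of 14 receptor UMIs shared the third place. The Pf4 call remained when, for each library, the top cell was left out, and when the cells with any UMI of Itga2b, Gp9, Gp1bb, Gp5 or Tubb1 were left out.

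EC held Sparc, Clu and, on few UMIs, Serpine2. Clu had 19 UMIs in 12 of 20 cells and 30 in 16 of 26, where free RNA allowed up to 0.692 and 0.344. Serpine2 had 6 UMIs, 4 of them in 1 cell, and 2 UMIs, where free RNA allowed up to 0.279 and 0.128. Without the top cell of each library, Serpine2 was no longer found. Over all genes 55.4% were found in EC by this rule, against 3 of 9 members. Vwf and Treml1 passed in library 2 alone, on 3 UMIs each, and Mmrn1 in library 1 alone, on 4 UMIs in 1 cell. Pf4 had 5 and 7 UMIs, within the 9.58 and 5.91 that free RNA allowed once counting error is considered, and Thbs1 was at 0 in both libraries, which allows up to 11.4 and 5.29 CPM. With 46 EC cells in all, a low level of Vwf could not be measured well at this depth.

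Outside Mk, Mo/KC and EC, the members fell into small separate patterns. In HSPC, Mmrn1 was detected in 48 of 213 cells (22.5%, 17.1 to 28.7) and 46 of 208 (22.1%, 16.7 to 28.4). The share in G was 0.637% and 2.31%. With cells thinned to 3600 UMIs, with 211 of 213 HSPC and 136 of 157 G cells of library 1 deep enough, the shares were 6.67% and 7.15% in HSPC and 0.238% and 0.934% in G. Treml1, with 18 and 10 UMIs, and Serpine2, with 8 and 5, were found in HSPC as well, so that 3 of 9 were found where 78.5% of all genes were. Neither Pf4 nor Ppbp exceeded free RNA there. Among HSPC cells, Mmrn1 was higher where the receptor list was: cells with 0 receptor UMIs held 7.29 and 8.0 CPM and those with at least 2 held 23.8 [17.0 to 32.6] and 24.1 CPM [16.3 to 34.4], and the intervals did not overlap in either library.

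In G, Thbs1 was detected in 75 of 157 cells and 39 of 130, at 89.3 CPM [76.4 to 104] and 44.8 CPM [35.8 to 55.4]. Clu was found there too, with 13 and 14 UMIs, so that 2 of 9 members were found against 72.4% of all genes. In Hepa, Clu, Sparc and Serpine2 were found, 3 of 9 against 63.8% of all genes. Clu was seen in 19 of 33 and 14 of 31 Hepa cells. Sparc in Hepa of library 1 came from a single cell, which held 25 of 26 UMIs, and library 2 had 6 UMIs.

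The erythroid types could not be tested against free RNA, because they make Hbb-bs themselves. Pf4 in Ery, at 15.1 and 11.5 CPM, was held by few cells. The top cell had 112 of 287 UMIs in library 1 and 72 of 206 in library 2, and these cells had 49 and 55 receptor UMIs. In the Ery cells with under 10 receptor UMIs the level was 7.03 and 7.14 CPM. The Ppbp of Ery showed the same, with 75 of 108 UMIs in 1 cell of library 1. Treml1 was spread more evenly in Ery, over 100 of 932 and 68 of 818 cells with no more than 4 and 8 UMIs in any.

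Within Mk, every member but Sparc was higher above the median receptor share than below it in both libraries, by steps of unlike size. Above the median receptor share, Pf4 reached 18943 CPM in library 1 and 19909 in library 2, and below it 3978 and 607 CPM. Ppbp stood at 7036 and 1852 CPM against 40.8 and 4.32 CPM. Serpine2 had the smallest step, at 110 and 49.0 CPM against 52.1 and 30.3 CPM, on 36 and 27 UMIs against 23 and 14. Without the richest cell on each side of the median, its intervals overlapped in library 2, at 35.4 CPM [21.3 to 55.2] against 19.7 CPM [9.01 to 37.4]. For Sparc the order was opposite, at 30.4 and 21.8 CPM against 150 and 223 CPM. The lower range includes all cells with under 2 receptor UMIs, which held most of the Sparc. Near this split lay 7 and 9 cells, with a share up to 25% above the median or below it by the same factor. The receptor share itself fell into 3 ranges: cells with under 2 receptor UMIs, cells in which the list made up less than 1% of UMIs (31 and 41 cells), and cells in which it made up at least 1% (28 and 4 cells). Between 0.921% and 1.43% in library 1, and between 0.782% and 1.66% in library 2, there was no cell.

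The cells with at least 1% receptor UMIs had a lower median depth than the middle range and more RNA per UMI of several granule genes. Their median was 3414 UMIs in library 1 and 5574 in library 2, against 16277 and 18891 UMIs in the middle range, but the deepest had 45569 UMIs. Treml1 stood at 363 and 357 CPM in the middle range and at 3253 and 2676 CPM above 1%. Thbs1 stood at 336 and 341 against 2570 and 2280 CPM, and Clu at 198 and 256 against 1991 and 1718 CPM. None of these intervals overlapped. Pf4, at 7410 and 12513 CPM in the middle range, reached 26811 and 21772 CPM, a smaller step than that of Treml1, Thbs1 or Clu in both libraries. These Pf4 levels rested on 1 cell in each library. The deepest cell held 2231 of the 4121 Pf4 UMIs in library 1, and a cell of 13826 UMIs held 526 of 659 in library 2. Without them Pf4 stood at 17478 CPM [16699 to 18284] and 8089 CPM [6773 to 9586], so that in library 2 it was no longer above the middle range. Treml1, Thbs1 and Clu stayed at 1291 to 3671 CPM without the cell richest in each, all above the middle range. Ppbp went from 753 to 12602 CPM in library 1 and from 1102 to 2973 CPM in library 2, where 1 cell held 85 of the 90 UMIs. Without the cell richest in Ppbp the levels above 1% were 9035 CPM and 304 CPM [98.7 to 710]. The middle range without its own richest cell stood at 379 CPM and 632 CPM [578 to 688], so the intervals overlapped in library 2. Vwf stood at 98.0 and 102 CPM in the middle range and at 254 [180 to 347] and 165 CPM [53.6 to 386] above 1%, so the intervals overlapped in library 2. Mmrn1 went from 111 to 384 CPM in library 1 and from 89.7 to 165 CPM, on 5 UMIs, in library 2. Serpine2 went from 69.2 to 130 CPM and from 28.3 to 297 CPM, where 1 cell held 8 of 9 UMIs. Without that cell it stood at 60.8 CPM [1.54 to 339]. Sparc above 1% had 10 UMIs, all in 1 cell, in library 1 and 0 in library 2.

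**Figure D3:**
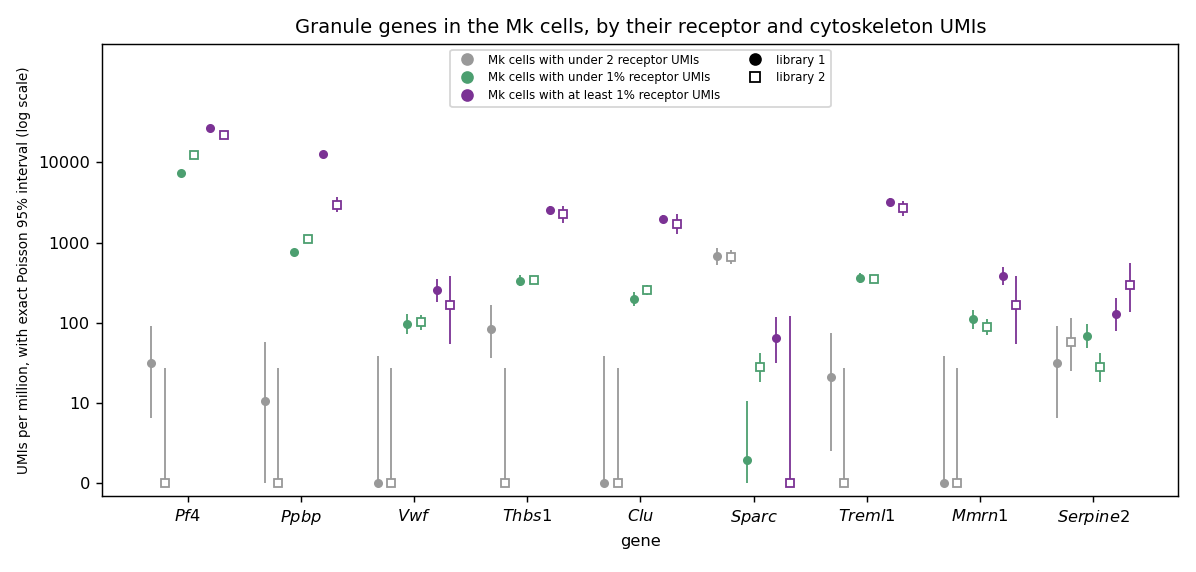
Level of each gene in the Mk cells with under 2 receptor UMIs (grey), with receptor UMIs under 1% (green) and at least 1% (purple) of all UMIs, in CPM on a log axis with exact Poisson 95% intervals; filled circles are library 1 and open squares library 2, and 0 is drawn at the foot of the axis. Sparc is highest in the grey cells, and Treml1, Thbs1 and Clu are highest in the purple ones.

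In the cells with under 2 receptor UMIs, the granule genes other than Sparc had few UMIs. Library 2 had 0 UMIs of Pf4, Ppbp, Vwf, Thbs1, Clu, Treml1 and Mmrn1 in 11 cells, which allows up to 21.9 CPM of each. Library 1 had 3 UMIs of Pf4, 1 of Ppbp, 2 of Treml1 and 8 of Thbs1 in 20 cells. For Thbs1 that was 83.5 CPM [36.1 to 165], in 3 cells, and for Serpine2, with 3 UMIs in library 1 and 8 in library 2, it was 31.3 and 58.4 CPM. Markers of G were detected at 1315 and 1278 CPM in these cells beside the stellate and mesothelial genes. In each library 1 cell held most of the G UMIs, 93 of 126 and 129 of 175. Markers of monocytes were at 1284 and 497 CPM, with Ccr2 and Chil3 at 0 in both libraries. In library 1, 1 cell held 74 of the 123 monocyte UMIs. Markers of Eryb were higher, at 12047 and 115182 CPM, and those of Ery were at 1326 and 2176 CPM. The part of all these sources in the granule values was not tested.

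By detection, Ppbp was nested within Pf4. Pf4 had more UMIs in Mk, 7981 against 2330 in library 1 and 11257 against 1023 in library 2. The part of this difference in the overlap was not tested. Among the Mk cells with at least 2 receptor UMIs, all 28 cells with Ppbp in library 1 and all 19 in library 2 had Pf4 as well, while 23 cells in each library had Pf4 without Ppbp. The median level of Pf4 was 25580 and 18737 CPM in the cells with Ppbp and 399 and 1298 CPM in those without. For Treml1 and Thbs1 the nesting was looser. Treml1 was seen without Pf4 in 6 and 1 cells and Thbs1 in 7 and 2. A median of 6 members was detected per cell in both libraries, and 8 of 59 and 9 of 45 cells had all members but Sparc or all 9. No cell lacked all members other than Sparc.

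In the middle range, the levels of Pf4 and the receptor share went together over cells, with a Spearman rho of 0.51 over 31 cells of library 1 and 0.86 over 41 cells of library 2. For Ppbp rho was 0.57 and 0.61, for Treml1 0.54 and 0.72 and for Clu 0.65 and 0.69. Vwf (0.32 and 0.55), Mmrn1 (0.36 and 0.16) and Serpine2 (0.04 and 0.21) went with the receptor share less in both libraries than these 4. Thbs1 was at 0.58 and 0.52, and Sparc had values below 0 (-0.22 and -0.19). These values describe cells that share a library, and sparse counts of the low genes weaken them.

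Malat1, a long non-coding RNA that stays in the nucleus, separated the cells with at least 1% receptor UMIs further. In library 1, 12 of these 28 cells had 0 Malat1 UMIs, which allows up to 109 CPM, and the other 16 had 39133 CPM. Free RNA held 2898 CPM of it. The 12 cells without Malat1 all had both chemokine genes: Pf4 at 40407 CPM [38063 to 42858] and Ppbp at 27789 CPM [25851 to 29834]. Per cell the median was 39923 CPM of Pf4 and 18710 CPM of Ppbp. Of the 16 with Malat1, 11 had Pf4 and 6 had Ppbp, at 23859 CPM [23014 to 24726] and 9304 CPM [8780 to 9852] in all but with a median of 1539 CPM and 0 CPM per cell. The deepest cell is one of these, but it had only 16 Malat1 UMIs among its 45569 UMIs. Another of the 16 had 1 Malat1 UMI among 2158, with 138 UMIs of Pf4 and 8 of Ppbp. A cut at 0 Malat1 UMIs thus depends on depth. Without the deepest cell, those with Malat1 stood at 9688 CPM [9021 to 10392] of Pf4 and 2664 CPM [2320 to 3045] of Ppbp. Without its richest cell, the Ppbp of the 12 cells was 17811 CPM [16006 to 19763]. Clu was higher without Malat1 as well, at 3428 CPM [2770 to 4195] against 1679 CPM [1460 to 1921]. Thbs1 did not differ in this direction, at 1933 CPM [1448 to 2528] without Malat1 and 2708 CPM [2429 to 3011] with it. Platelets have no nucleus, whereas megakaryocytes have a large one, and what these cells are was not tested. Lack of Malat1 was not particular to them. In library 1, Malat1 was seen in 66.7% of Hepa cells and 79.9% of Ery cells. For Mo/KC the share was 82.1% and for EC 85.0%, whereas in HSPC, G, Eryb and EryP it was 98.1% to 99.4%. The 12 Mk cells without Malat1 had a median of 2021 UMIs and the 16 with it 5006. All 4 cells of library 2 with at least 1% receptor UMIs had Malat1. Library 2 kept no cell below 4387 UMIs, so cells as shallow as most of the 12 could not appear there. The cells with and without Malat1 were grouped after the data had been seen, and no test was made between them.

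**Figure D4:**
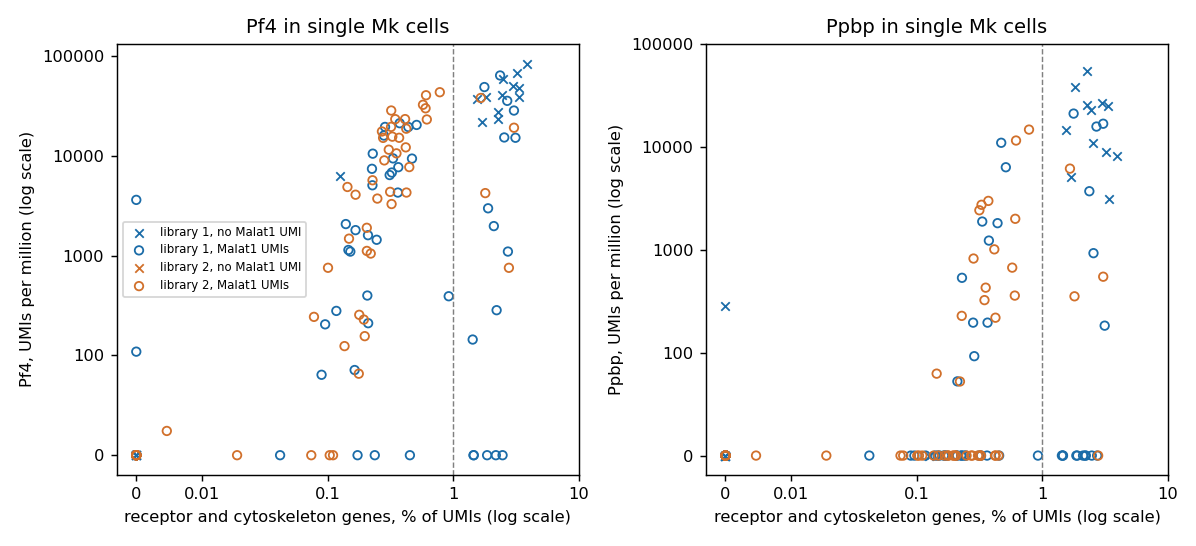
Pf4 (left) and Ppbp (right) in each of the 135 Mk cells, in CPM, against the percentage of UMIs from the receptor and cytoskeleton list, both on log axes with 0 drawn at the edge; blue is library 1 and orange library 2, and crosses are cells without a Malat1 UMI. Right of the dashed line at 1%, the 12 blue crosses lie at high Pf4 and Ppbp, and other cells there reach down to 0.

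Beside the members, 2 further genes of the granule system met the 5-fold rule. Of 13 further genes for alpha-granule proteins, 11 reached 10 CPM in a type of each library and 0 met the 5-fold rule, against 0.821% of all genes tested. Tgfb1 (991 and 670 CPM in Mk), Srgn (695 and 269 CPM) and Timp3 (217 and 179 CPM) were the highest of them, and Srgn, which encodes the proteoglycan that packs granule proteins, was higher still in G, at 1572 and 1314 CPM. Fgg, a fibrinogen chain that platelets take up from plasma, had 0 UMIs in Mk and 786 and 461 CPM in Hepa. Among 22 genes for granule formation, 18 passed the same filter and 2 met the rule: Rab27b, which encodes a GTPase of granule transport, at 616 and 426 CPM, and Slc35d3, which is needed for dense granules, at 114 and 98.6 CPM. None of the 11 genes for granule release and none of the 10 transcription factors met it. Rasgrp2, which encodes the activator of Rap1 in platelets, was the highest release gene at 917 and 596 CPM. Mef2c and Gata1, among the highest of the transcription factors, were at 187 to 313 CPM in Mk. Of the 10 receptor and cytoskeleton genes, 9 passed the filter and 7 of these met the rule, with Gp1bb, Gp9 and Itga2b highest. Tubb1, the lowest at 10.4 and 2.96 CPM, did not pass the filter. That list served to check the name Mk.

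The genes most like each member were looked up by Pearson's r of log2(CPM + 1) over 18 profiles, 9 types in 2 libraries, as a description. For Pf4 they were Sulf1 (0.926), Cxcl5 (0.925) and Gp6 (0.917). Cxcl5 is another chemokine gene of the same cluster, 6893 bases from Ppbp. Gp6, the platelet collagen receptor, also followed Ppbp (0.967), after F2rl2 (0.980), a thrombin receptor, and Tmem163 (0.970). Treml1 was most like Cap2 (0.951), Rab27b (0.942) and Gp1bb (0.938), and Mmrn1 most like Prkcq (0.967), Pdgfb (0.962) and Fam110b (0.961). Thbs1 was most like Itgb3 (0.901), an integrin chain of platelets, with lower values than the other members. Vwf was most like P3h2 (0.926) and F2rl2 (0.924). Clu and Serpine2 were close to each other (0.953). Sparc went with Asb4, Serpinh1 and Zfp57 (0.969 to 0.976) and with no platelet gene among its 3.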

How the data were processed

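RNA was measured in single cells from 1 liver of stage E12.5, in a pair of technical replicates. For each replicate the authors deposited whole-number counts of UMIs, not normalized, over all barcodes and over called cells, together with a cell type for each kept cell. The submitters' processing notes name bcl2fastq 2, Cell Ranger 2.1.1, Seurat 3.2.0 and mm10, and a matrix header of library 1 names version 3.0.0; doublets were removed by sorting and no caller was run here. The members and gene lists were chosen with earlier results of these data known.

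Counts were summed per cell type and library over annotated cells (Python 3.11.15, numpy 2.4.6, scipy 1.17.1, pandas 2.3.3, matplotlib 3.10.9) and divided by all UMIs of those cells. Intervals were exact Poisson for levels, Clopper-Pearson for shares and conditional binomial for ratios, all at 95%. A count of 0 was taken to allow up to 3 counts. Cells were thinned to 3600 UMIs by the mean over all possible draws. Free RNA was measured in barcodes of 1 to 50 UMIs, and its largest share of a type's UMIs came from Hbb-bs. Because there was 1 liver, no test between samples was possible. A gene was called highest in Mk at 5-fold or more over every other type in each library, with a filter of 10 CPM. The named genes were the 9 members, the 3 most alike genes of each, and the 3 highest genes and the lowest gene in Mk of each further list, apart from items not reported here. Scripts were tested on simulated data. Alternatives left out a library, cells, barcodes or genes, or changed the fold, the thinning or the free-RNA range.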

Additional observations from a re-analysis of the deposited data

Results flagged for a closer look

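Granule RNA also lay in barcodes outside the annotated cells, none of which was in the tables of called cells. With at least 5 Pf4 UMIs that made up at least 1% of the UMIs of the barcode, 7 such barcodes were found in library 1 and 36 in library 2, where free RNA held Pf4 at 228 and 186 CPM. Kept cells went down to 504 UMIs in library 1 but only to 4387 in library 2. Barcodes of a depth kept in library 1 were thus left out in library 2, and these counts do not compare the libraries. The 7 of library 1 had 44 to 250 UMIs and held 54 UMIs of Pf4 and 6 of Ppbp. The 36 of library 2 reached 4274 UMIs and held 1670 UMIs of Pf4, 243 of Ppbp, 92 of Clu, 74 of Treml1 and 30 of Thbs1, but 1 of Sparc. Among them, 16 had at least 1% receptor and cytoskeleton UMIs. These 16 had a median of 905 UMIs, Pf4 at 2.21% to 9.26% of UMIs, Ppbp in 14 and no Malat1 UMI in 14. The other 20 had Pf4 at 1.09% to 2.23%, 0 UMIs of Ppbp and a globin share of 9.97%. The grouping by receptor share was chosen after the data had been seen, and what these barcodes hold was not tested.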

How the results depend on the processing

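Members highest in Mk numbered 6, with 6 to 7 when a library was left out (Mmrn1 was added without library 2). At 20-fold the number was 3 (Pf4, Ppbp and Treml1), and at 2-fold or by the mean log level it was 8. The members found in Mo/KC numbered 2, with 2 to 3 when a library was left out, and Pf4 and Thbs1 were among them under every alternative run. Leaving out globin genes could not change the calls in Mo/KC or EC, because total UMIs cancel in that rule. The members found in EC numbered 3, with 4 to 5 when a library was left out (5 without library 1, where Vwf and Treml1 were added) and 5 with both libraries summed. Serpine2 was lost in EC under 4 alternatives. Among them were the filter at 1000 genes, a free-RNA share fixed at 20% and leaving out the top cells. The other left out cells with a UMI of Itga2b, Gp9, Gp1bb, Gp5 or Tubb1, which kept 29 of 46 EC cells. In EC, Itga2b had 15 and 12 UMIs and the rest of these genes had 0. Barcodes outside the cells numbered 43, with 7 to 36 when a library was left out. Library 2 held most of them, but its kept cells began at 4387 UMIs and those of library 1 at 504. The level of Sparc in Mk was 107 CPM with all cells and 22.6 CPM without those with under 2 receptor UMIs. For Pf4 it was 10782.5 and 12398 CPM. Ppbp was at 1879 CPM with all cells and 829 CPM without those with at least 1% receptor UMIs, where Pf4 was at 9035 CPM. The last 2 alternatives, the top cells (in Mk too), the shared barcodes and the UMI minimum were chosen after the data had been seen. No paired analysis was possible because both libraries came from 1 liver and no groups of samples were compared. The 20 and 26 EC cells limit what can be said of low genes there.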
